A study of Homo sapiens with 5 samples.

Results

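The genes described here encode the nuclear part of the mitochondrial respiratory chain and of ATP synthase. They are the protein-coding genes of GENCODE release 44 outside the mitochondrial chromosome whose symbols begin with NDUFA, NDUFB, NDUFC, NDUFS, NDUFV, UQCR, COX4, COX5, COX6, COX7, COX8 or ATP5, together with SDHA, SDHB, SDHC and SDHD. Symbols with a hyphen, which name readthrough transcripts, were dropped, and these were ATP5MF-PTCD1 and NDUFC2-KCTD14. The rule gave 96 of 19689 protein-coding genes. There were 37 subunits of complex I, 8 assembly factors of complex I (the NDUFAF genes), 4 subunits of complex II, 9 of complex III, 19 of complex IV and 19 genes of complex V. NDUFA4 carries a complex I name but is known as a subunit of complex IV, so NDUFA4 and its relative NDUFA4L2 were counted there. The rule used names only and no measured value.

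Occupancy was measured by CUT&Tag, in which an antibody tethers the Tn5 transposase to its target and the enzyme inserts sequencing adapters into the DNA nearby. All 5 libraries came from SNU638, an established human gastric cancer cell line grown in medium with serum, and the labels name no treatment, knockdown or transgene for any of them. The antibodies were against ACTL6A, BRG1 or NRF2, with 1 library per antibody, and 2 libraries with IgG, named IgG 1 and IgG 2 here, served as controls. The design addresses where the 3 proteins lie together on the genome. No antibody had a replicate, so a replicate error cannot be given for any difference, and no p-value is given.

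Complex I, complex II, complex III and complex IV pass electrons from NADH and succinate to oxygen through ubiquinone and cytochrome c, and all but complex II pump protons as they do so. Complex V, the ATP synthase, lets the protons flow back through a ring of c subunits and makes ATP in its F1 head. Some subunits are made in the mitochondrion from its own DNA, and all those described here are made from nuclear genes and imported. ACTL6A, also called BAF53A, is an actin-like subunit of SWI/SNF and related chromatin remodelling complexes, and BRG1 is an ATPase that drives SWI/SNF. NRF2 is here NFE2L2, the factor that KEAP1 holds in check and that binds antioxidant response elements. It must not be confused with nuclear respiratory factor 2, an ETS-type factor made of GABPA and GABPB, which together with nuclear respiratory factor 1 (NRF1) and YY1 is known for its sites in promoters of respiratory genes.

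Peaks numbered 23917 with the ACTL6A antibody, 48793 with BRG1 and 9045 with NRF2, and IgG 1 and IgG 2 gave 11 and 1746. Reads are not part of these lists, and the fragments covering each summit were worked out from its fold enrichment and p-value. ACTL6A peaks had a median of 6 fragments, BRG1 peaks 10 and NRF2 peaks 17, and the smallest peaks rested on 3, 3 and 8 fragments. Many peaks are therefore thin, and a missing peak means only that none was called at this depth. Of 6 epithelial markers, BRG1 had a peak at 5 (not at CLDN4) and ACTL6A at 4. Of 9 markers of immune, endothelial and fibroblast cells, each of the 2 antibodies had a peak at COL1A1 alone. The interval, 1.99% to 43.5% for each, ended below the share of all genes for BRG1 and included it for ACTL6A. NRF2 had a peak at none of these marker genes. Its upper bounds, 39.0% and 29.9% for the 2 lists, lay above the 28.1% of all genes.

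A gene was counted as having a peak when any base of one lay at most 1 kb from the first base of any of its protein-coding transcripts, called a start below. The strongest peak of a gene is the one with the highest -log10 q. Positions relative to a gene are counted from the start of its MANE Select transcript, with negative values upstream. The promoters printed next are those on which the results turn. They were taken from RefSeq (GRCh38.p14), where 77 of the 96 genes had an entry. They run 5′ to 3′ on the strand of the gene, and capitals mark matches to the letters searched: CCGGAAG for the ETS core, GCGCATGCG for the NRF1 site, AAGATGGC for the YY1 site and TGACNNNGC for the core of the antioxidant response element (ARE), each on either strand.

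ATP5MC1 encodes a c subunit of the ATP synthase ring and COX8A a small subunit of complex IV, and at both genes the summits of all 3 antibodies fell about 200 bp upstream of the start, inside the stretch shown. COX8C is the testis isoform of COX8A and had no peak. In the COX8A stretch the ETS core begins at -18.
ATP5MC1 (chr17:48892537-48892791, plus strand): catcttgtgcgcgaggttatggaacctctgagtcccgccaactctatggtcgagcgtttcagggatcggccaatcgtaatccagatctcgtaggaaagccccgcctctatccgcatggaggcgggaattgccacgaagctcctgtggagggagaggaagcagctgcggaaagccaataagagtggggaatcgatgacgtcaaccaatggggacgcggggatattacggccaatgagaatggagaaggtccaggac
COX8A (chr11:63974370-63974649, plus strand): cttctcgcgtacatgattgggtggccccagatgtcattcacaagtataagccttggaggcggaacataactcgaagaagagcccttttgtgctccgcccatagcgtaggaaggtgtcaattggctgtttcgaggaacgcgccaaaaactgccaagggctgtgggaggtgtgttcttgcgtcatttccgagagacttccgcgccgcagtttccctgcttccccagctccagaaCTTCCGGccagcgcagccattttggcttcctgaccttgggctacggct
COX8C (chr14:93346932-93347211, plus strand): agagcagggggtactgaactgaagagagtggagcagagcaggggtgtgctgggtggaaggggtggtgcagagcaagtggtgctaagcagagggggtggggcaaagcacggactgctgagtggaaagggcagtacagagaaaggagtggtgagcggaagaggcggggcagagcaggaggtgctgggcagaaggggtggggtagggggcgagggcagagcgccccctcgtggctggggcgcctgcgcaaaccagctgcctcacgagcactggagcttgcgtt

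ATP5PB encodes the b subunit of the stalk that holds the ATP synthase head, and it held the strongest NRF2 peak of complex V. SDHB encodes the iron-sulfur subunit of complex II and held the strongest peak of that complex for each of the 3 antibodies. UQCRC1, a core subunit of complex III, had peaks of BRG1 and NRF2 and none of ACTL6A. NDUFB4 is an accessory subunit of complex I with peaks of all 3. The capitals mark a YY1 site at ATP5PB, an ETS core and a YY1 site at SDHB, an ARE core and a YY1 site at UQCRC1, and the NRF1 site, which reads on both strands, at NDUFB4.
ATP5PB (chr1:111449234-111449493, plus strand): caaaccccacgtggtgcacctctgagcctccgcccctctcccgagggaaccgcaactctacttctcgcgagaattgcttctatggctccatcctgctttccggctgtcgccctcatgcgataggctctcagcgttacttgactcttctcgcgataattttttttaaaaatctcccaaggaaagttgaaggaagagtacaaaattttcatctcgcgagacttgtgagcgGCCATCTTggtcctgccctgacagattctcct
SDHB (chr1:17054003-17054282, minus strand): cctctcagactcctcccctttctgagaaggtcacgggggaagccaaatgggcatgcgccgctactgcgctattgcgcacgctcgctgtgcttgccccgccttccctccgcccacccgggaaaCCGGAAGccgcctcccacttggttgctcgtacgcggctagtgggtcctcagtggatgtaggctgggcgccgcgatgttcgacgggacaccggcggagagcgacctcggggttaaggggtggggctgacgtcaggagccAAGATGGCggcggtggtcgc
UQCRC1 (chr3:48609607-48609896, minus strand): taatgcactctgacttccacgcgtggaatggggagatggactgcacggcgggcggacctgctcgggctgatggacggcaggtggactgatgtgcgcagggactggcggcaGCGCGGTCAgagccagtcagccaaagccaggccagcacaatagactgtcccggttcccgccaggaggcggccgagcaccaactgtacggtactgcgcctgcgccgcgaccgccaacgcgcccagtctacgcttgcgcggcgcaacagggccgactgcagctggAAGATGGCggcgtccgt
NDUFB4 (chr3:120596086-120596355, plus strand): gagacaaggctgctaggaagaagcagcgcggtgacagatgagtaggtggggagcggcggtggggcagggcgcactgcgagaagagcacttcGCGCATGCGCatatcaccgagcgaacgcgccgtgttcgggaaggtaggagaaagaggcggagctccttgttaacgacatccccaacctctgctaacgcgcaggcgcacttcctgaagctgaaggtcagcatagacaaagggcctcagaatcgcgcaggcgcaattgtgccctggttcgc

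COX7C, a subunit of complex IV, and UQCRFS1, the Rieske iron-sulfur protein of complex III, are shown because BRG1 had no peak at either. COX7C kept an ACTL6A peak and UQCRFS1 had none of any antibody. Neither stretch holds one of the 4 motifs.
COX7C (chr5:86617691-86617970, plus strand): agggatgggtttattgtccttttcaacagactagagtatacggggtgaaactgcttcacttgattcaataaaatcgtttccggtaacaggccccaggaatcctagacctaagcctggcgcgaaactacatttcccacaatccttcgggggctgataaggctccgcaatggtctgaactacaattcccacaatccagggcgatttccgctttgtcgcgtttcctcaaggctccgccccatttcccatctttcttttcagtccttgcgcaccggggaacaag
UQCRFS1 (chr19:29213122-29213401, minus strand): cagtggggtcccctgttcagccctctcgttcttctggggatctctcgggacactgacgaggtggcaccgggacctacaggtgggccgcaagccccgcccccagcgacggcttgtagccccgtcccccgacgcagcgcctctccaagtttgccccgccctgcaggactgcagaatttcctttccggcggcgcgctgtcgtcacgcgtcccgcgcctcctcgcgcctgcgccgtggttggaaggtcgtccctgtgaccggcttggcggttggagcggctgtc

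BRG1 had a peak at a start of 87 of the 96 genes (90.6%, Wilson 95% interval 83.1% to 95%). Over all 19689 protein-coding genes the share was 63.5%. ACTL6A had a peak at 63 (65.6%, 55.7% to 74.4%), against 38.5% of all genes. NRF2 had a peak at 44 (45.8%, 36.2% to 55.8%), against 28.1% of all genes. Peaks of all 3 were found at 34 genes (35.4%, 26.6% to 45.4%), against 22.1% of all genes. IgG 1 had a peak at 0 of the 96 genes and 0% of all genes, and IgG 2 at 0 of the 96 and 0.152% of all genes. The intervals treat genes as independent and cover counting error only.

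The members also exceeded all genes in lists of equal length. With the 5000 highest peaks of each list, 33.3% of the members had an ACTL6A peak, 30.2% a BRG1 peak and 28.1% an NRF2 peak. The corresponding shares of all genes were 19.4%, 19.0% and 18.5%. At equal length the shares of the 3 antibodies thus lay closer together than the 65.6%, 90.6% and 45.8% of the full lists, which are unequal in length.

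NRF2 was nested in BRG1 at these genes. All 44 genes with an NRF2 peak also had a BRG1 peak, and of the 63 genes with an ACTL6A peak, COX7C and NDUFAF5 were the 2 without BRG1. NRF2 without BRG1 was also rare over all genes, of which 0.361% had NRF2 alone and 0.0711% had NRF2 with ACTL6A but no BRG1. Besides the 34 genes with all 3, ACTL6A and BRG1 shared 27 genes without NRF2, BRG1 and NRF2 shared 10 without ACTL6A, and BRG1 was alone at 16. The remaining 7 genes had no peak of any antibody. As shares of the members these were 28.1%, 10.4%, 16.7% and 7.29%, and as shares of all genes 14.7%, 5.60%, 21.1% and 34.4%. Among the 87 genes with a BRG1 peak, 61 also had ACTL6A (70.1%, 59.8% to 78.7%), against 58.0% of all genes with BRG1, and 44 also had NRF2 (50.6%, 40.3% to 60.8%), against 43.6%. The latter interval includes the background share.

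The 10 genes with BRG1 and NRF2 but no ACTL6A peak came from every group except complex II. They were NDUFA7, NDUFA10, NDUFB2, NDUFAF3, UQCRC1, UQCRH, COX5A, COX6C, ATP5F1E and ATP5MJ. Their NRF2 summits held 10 to 29 fragments, within the range of 9 to 89 at the genes with ACTL6A. At NDUFA7, an accessory subunit of complex I, NRF2 had 27 fragments (highest 25.4% of its list) and BRG1 16 (39.6%). At COX6C, a small subunit of complex IV, NRF2 had 20 fragments at 474 and BRG1 9 at 68. In rank BRG1 stood higher there (37.7%, against 43.3% for NRF2), and the peaks did not overlap. NDUFB2, another accessory subunit of complex I, had the reverse of NDUFA7, with 40 fragments of BRG1 (highest 5.04%) and 19 of NRF2 (50.1%).

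Genes with a BRG1 peak alone included NDUFA1, NDUFA3, NDUFAB1 and NDUFB1 of complex I, SDHA of complex II, COX4I1, COX4I2 and COX7B of complex IV and ATP5F1D, ATP5IF1 and ATP5ME of complex V. NDUFAB1, which is also the acyl carrier protein of mitochondrial fatty acid synthesis, had 10 fragments of BRG1 at -889. NDUFS7, a core subunit near the site where ubiquinone is reduced, had 15 fragments. The strongest of the 16 peaks was that of ATP5IF1 (highest 10.1%), so none was in the highest 10% of the BRG1 list.

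In complex I BRG1 missed no gene. All 37 subunits had a BRG1 peak (100%, 90.6% to 100%), 25 had ACTL6A (67.6%, 51.5% to 80.4%) and 15 had NRF2 (40.5%, 26.3% to 56.5%). The 7 nuclear core subunits, which carry the flavin and the iron-sulfur clusters or lie beside them, all had BRG1. Their BRG1 summits held 15 to 76 fragments with a median of 25, and those of the other 30 subunits 4 to 145 with a median of 16. ACTL6A lay at 5 of the 7 and NRF2 at 2 (28.6%, 8.22% to 64.1%), NDUFS8 and NDUFV2. Over all genes the shares were 63.5% for BRG1, 38.5% for ACTL6A and 28.1% for NRF2. For the 37 subunits the BRG1 and ACTL6A intervals lay above these shares. The NRF2 intervals, of the 37 and of the 7, included that of all genes.

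The strongest peaks of the complex were at NDUFA11, an accessory subunit of the membrane arm. ACTL6A had 62 fragments at its summit there, where the caller expected 3.25, BRG1 had 145 against 9.17, and NRF2 had 89 against 10.2. These were among the highest 0.330%, 0.166% and 2.31% of the peaks of their lists. The ACTL6A peak spanned chr19:5903867-5904816 (950 bp), the BRG1 peak chr19:5903911-5904943 (1033 bp) and the NRF2 peak chr19:5903809-5904850 (1042 bp). All 3 lay wholly upstream of the MANE Select start at 5903790, with summits at -650, -681 and -555. A start of VMAC lay within 1 kb of these peaks, and the gene ENSG00000267740 starts 87 bp from NDUFA11, so the peaks cannot be assigned to NDUFA11 alone.

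NDUFA6, another accessory subunit, had 69 BRG1 fragments (highest 0.924% of the list), 24 of ACTL6A (1.87%) and 39 of NRF2 (6.71%). NDUFS8, a core iron-sulfur subunit, had 76 fragments of BRG1, which ranked in the highest 2.08%, but its ACTL6A and NRF2 peaks ranked at 17.2% and 66.3%. The weakest BRG1 peak of the complex was at NDUFS4, a subunit known from Leigh syndrome, with 4 fragments and a -log10 q of 2.49. The weakest ACTL6A peak, with 4 fragments and a -log10 q of 2.25, was at NDUFA9, and the weakest NRF2 peak, with 10 fragments and a -log10 q of 3.08, at NDUFA10. A gene could thus rank high for 1 antibody and low for another.

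Of the 8 assembly factors of complex I, which help to build the complex and are not part of it, 7 had ACTL6A, 7 had BRG1, 5 had NRF2 and 4 had all 3. Over all genes these shares were 38.5%, 63.5%, 28.1% and 22.1%. The intervals for BRG1 (52.9% to 97.8%) and for all 3 (21.5% to 78.5%) included the share of all genes. NDUFAF4 held the strongest ACTL6A peak of the group with 16 fragments (highest 4.76%). NDUFAF5 had an ACTL6A peak of 8 fragments at -156 and no BRG1 or NRF2 peak, and the nearest BRG1 peak was 145853 bp from its start. Its start lies 109 bp from that of ESF1 in a head-to-head arrangement. At NDUFAF6 the strongest BRG1 peak (56 fragments) and the strongest NRF2 peak (25 fragments) lay at another annotated start, at -129153 and -129480, within 1 kb of a start of CCNE2. Weaker peaks lay at its MANE Select start, with 30 fragments of BRG1 at -3, 20 of NRF2 at 10 and 7 of ACTL6A at -249. The weakest peaks of the group by -log10 q were that ACTL6A peak, the BRG1 peak of NDUFAF2 with 14 fragments and the NRF2 peak of NDUFAF7 with 11, which stood at 97.7% of its list.

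All 4 genes of complex II, the succinate dehydrogenase of the citric acid cycle, had a BRG1 peak. The interval, 51.0% to 100%, included the 63.5% of all genes. SDHB ranked first for each antibody, with 15 fragments of ACTL6A, 43 of BRG1 and 15 of NRF2. SDHC, a membrane anchor, ranked last for each antibody, with 5, 9 and 11 fragments. SDHA, the flavoprotein, had BRG1 alone with 25 fragments, and SDHD, the other anchor, had 9 of ACTL6A and 18 of BRG1 and no NRF2 peak. SDHB and SDHC were thus the genes with all 3, although the NRF2 peak of SDHB stood only at 57.5% of its list.

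In complex III, BRG1 lay at 7 of 9 genes (45.3% to 93.7%), ACTL6A at 5 (26.7% to 81.1%) and NRF2 at 3 (12.1% to 64.6%). These intervals included the 63.5%, 38.5% and 28.1% of all genes. UQCRQ was the 1 gene with all 3. Its NRF2 peak, of 13 fragments, was the weakest of the complex. The core subunit UQCRC2 held the strongest ACTL6A peak with 20 fragments (highest 3.01%) and had no NRF2 peak. UQCRC1 showed the other pattern, with the strongest BRG1 peak of the complex (42 fragments, highest 4.08%), an NRF2 peak of 13 fragments and no ACTL6A peak within 17842 bp. UQCRH, the hinge protein, had the BRG1 peak of the complex with the lowest -log10 q (13.8, with 23 fragments) and the strongest NRF2 peak with 28 fragments. Its nearest ACTL6A peak was 2054 bp from the start. UQCR11 held the weakest ACTL6A peak with 10 fragments.

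Complex IV had the lowest shares for BRG1, with 14 of 19 genes (73.7%, 51.2% to 88.2%). ACTL6A lay at 10 (52.6%, 31.7% to 72.7%) and NRF2 at 7 (36.8%, 19.1% to 59.0%). These intervals overlapped those of complex I for ACTL6A and NRF2, and for BRG1 they ended below 90.6%, where that of complex I began. Each complex IV interval included the share of all genes (63.5% for BRG1, 38.5% for ACTL6A and 28.1% for NRF2). Most of the tissue-restricted isoforms compared below are counted in complex IV, so complexes I and IV also differ in isoform type. The 5 genes without BRG1 were COX6A2, COX7A1, COX7B2, COX8C and COX7C, and the first 4 are isoforms known from muscle or testis. COX8A had 78 fragments of BRG1, 21 of ACTL6A and 16 of NRF2, and the BRG1 peak stood in the highest 0.795% of its list. COX7A2L, known as a factor that joins complexes III and IV, held the strongest ACTL6A peak with 26 fragments (highest 1.81%), and NDUFA4 the strongest NRF2 peak with 21 fragments. The weakest ACTL6A peak was at COX6B1 with 7 fragments and the weakest NRF2 peak at COX7A2 with 9.

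Complex V had the highest share for NRF2 among the 5 complexes. NRF2 lay at 12 of 19 genes (63.2%, 41.0% to 80.9%), BRG1 at 18 (94.7%, 75.4% to 99.1%), ACTL6A at 13 (68.4%, 46.0% to 84.6%), and 10 genes had all 3. The NRF2 interval overlapped those of the other complexes. The intervals for NRF2, BRG1 and ACTL6A lay above the 28.1%, 63.5% and 38.5% of all genes. The ACTL6A and NRF2 peaks also ranked higher: 8 of the 13 ACTL6A peaks (61.5%) were in the highest 10% of the list, against 34.9% of the members with a peak and 26.7% of all genes with a peak. For NRF2 it was 4 of 12 (33.3%) against 13.6% and 7.87%. For BRG1 the difference was smaller, with 7 of 18 (38.9%) against 32.2% and 29.3%. The 4 NRF2 peaks were those of ATP5PB, ATP5PD, ATP5F1C and ATP5MC1. ATP5PB, ATP5PD and ATP5F1C start 208, 256 and 184 bp from WDR77, KCTD2 and KIN, each head to head. Their peaks cannot be assigned to the complex V genes alone.

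The 3 genes of the c ring, ATP5MC1, ATP5MC2 and ATP5MC3, encode the same mature protein behind different import signals, and each had all 3 peaks. ATP5MC1 had 37 fragments of ACTL6A, 84 of BRG1 and 38 of NRF2. ATP5MC2 had 32, 57 and 27. ATP5MC3 had 8, 16 and 15, with summits between 524 and 620 bp downstream of its MANE Select start. The order of the 3 genes was the same for each antibody.

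The 4 genes of the peripheral stalk, ATP5PB, ATP5PD, ATP5PF and ATP5PO, each had all 3 peaks as well. ATP5PB had 65 fragments of NRF2 (highest 3.11%), 17 of ACTL6A and 16 of BRG1. ATP5PF had 34 of ACTL6A (highest 0.999%), 18 of BRG1 and 28 of NRF2. Its start lies 68 bp from that of GABPA, in a head-to-head arrangement, so that the gene of the ETS subunit of nuclear respiratory factor 2 shares these peaks. ATP5PD had 56 fragments of BRG1 and 41 of NRF2 with 6 of ACTL6A, and ATP5PO had 37, 13 and 16 in the same order.

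Of the 5 genes of the F1 head, all had BRG1 (56.6% to 100%) and 3 each had ACTL6A or NRF2 (23.1% to 88.2% for each). These intervals included the 63.5%, 38.5% and 28.1% of all genes for BRG1, ACTL6A and NRF2. ATP5F1B, the catalytic beta subunit, had 21 fragments of ACTL6A, 70 of BRG1 and 22 of NRF2. ATP5F1C, the gamma subunit of the central shaft, had 19, 30 and 43. ATP5F1A, the alpha subunit, had 30 fragments of BRG1 and no NRF2 peak, and its ACTL6A peaks lay at an annotated start further upstream, at -5953 and -6280, close to HAUS1, where BRG1 had a second peak of 13 fragments. ATP5F1D had BRG1 alone with 42 fragments, and ATP5F1E had 18 of BRG1 and 14 of NRF2, the weakest NRF2 peak of the complex. ATP5IF1, the inhibitor of the reverse reaction, had BRG1 alone with 31 fragments. The weakest ACTL6A peak was at ATP5MG with 4 fragments, at 98.1% of its list, and the weakest BRG1 peak at ATP5MJ with 13.

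**Figure D1:**
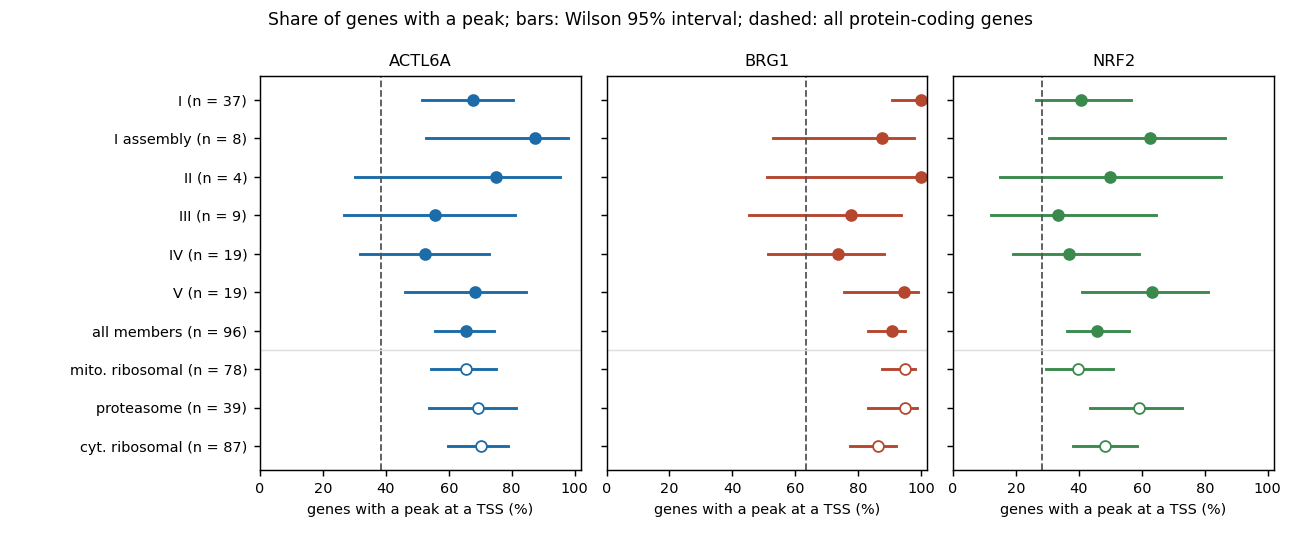
The horizontal axis gives the percentage of genes with a peak at a start and the rows the complexes, all members and 3 lists of other housekeeping genes, with Wilson 95% intervals as bars and the share of all protein-coding genes dashed. For BRG1 complex I lies at 100% and complex IV at 73.7%, and for NRF2 complex V lies at 63.2%.

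Several subunits have an isoform known to be used in particular tissues, such as muscle, lung or testis, or a copy elsewhere in the genome (UQCRHL and ATP5MGL), and these were compared with their widely used partners. Of 9 such isoforms, 3 had BRG1, 2 had ACTL6A and 0 had NRF2, and 6 had no peak. Of the 9 partners, all had BRG1, 6 had ACTL6A and 4 had NRF2. The intervals for BRG1 were 12.1% to 64.6% and 70.1% to 100%, against 63.5% of all genes. For ACTL6A they were 6.32% to 54.7% and 35.4% to 87.9%, against 38.5%. For NRF2 they were 0% to 29.9% and 18.9% to 73.3%, against 28.1%. The isoforms' intervals thus included the share of all genes for each antibody, and the partners' interval lay above it for BRG1 only. Without the 9 isoforms, BRG1 lay at 84 of 87 genes (96.6%), ACTL6A at 61 (70.1%) and NRF2 at 44 (50.6%), and UQCRFS1 was the only gene with no peak.

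COX6A1 had 35 fragments of BRG1 and 10 of ACTL6A, whereas COX6A2, the isoform of heart and skeletal muscle, had none, and its nearest BRG1 peak was 14512 bp away. COX7A2 had 9 fragments of ACTL6A, 10 of BRG1 and 9 of NRF2, and COX7A1, also of muscle, had no peak within 10835 bp. COX7B had 12 of BRG1, and COX7B2 had no BRG1 peak within 77791 bp. The nearest BRG1 peaks to COX8C, ATP5MGL and UQCRHL were 13888, 2762 and 7188 bp away, while ATP5MG had 15 BRG1 fragments. UQCRHL is a copy of UQCRH, and peaks were called from uniquely mapped reads, so a lack of peaks at a stretch that has a close copy is uncertain. The mappability of these starts was not tested.

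The 3 isoforms with peaks did not form a uniform picture. COX4I2, an isoform of lung, had 9 fragments of BRG1 at 20, against 13 at COX4I1. COX6B2, the testis isoform, had 54 fragments of BRG1 (highest 3.65%) and 10 of ACTL6A, both more than the 27 and 7 of COX6B1. Its summits lay at 671 and 598, downstream of the start. NDUFA4L2, known as a gene induced by low oxygen, had 22 fragments of BRG1 where 6.64 were expected and 9 of ACTL6A, at -4497 and -3535 near another annotated start, and the 2 peaks did not overlap. NDUFA4 had 19 of BRG1, 14 of ACTL6A and 21 of NRF2, with summits at -254, -124 and -149.

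**Figure D2:**
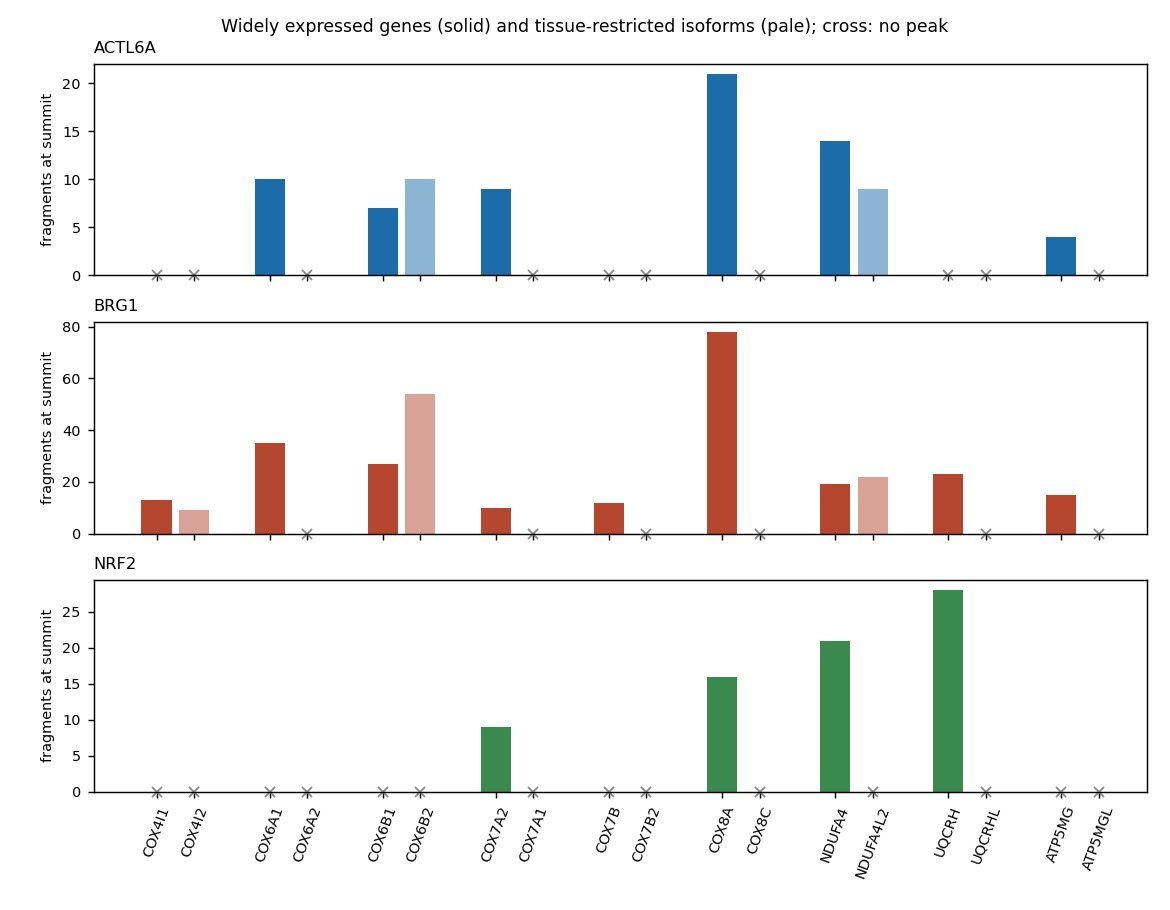
Bars give the fragments at the strongest summit of each antibody for widely used subunits (solid) and their tissue-restricted isoforms (pale), and a cross marks a gene with no peak. The scales differ between the panels. COX6B2 is the pale bar that exceeds its partner for both ACTL6A and BRG1.

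Outside the restricted isoforms, 3 genes had no BRG1 peak. At UQCRFS1 the nearest peaks were 24894 bp away for BRG1, with 3 fragments, 267348 bp for ACTL6A and 631311 bp for NRF2. Its nearest neighbouring start is that of VSTM2B, at 312843 bp. At COX7C, ACTL6A had 7 fragments where 0.210 were expected, at chr5:86617733-86617927, with the summit at -75. The nearest BRG1 peak was 48270 bp away and held 3 fragments, and the nearest NRF2 peak was 650325 bp away. The nearest start of another gene to COX7C, that of RASA1, lies 649942 bp away. The remaining gene was NDUFAF5, described above. UQCRFS1 and COX7C were the 2 members farthest from the start of another protein-coding gene, and the part of this in the missing peaks was not tested. Nor was the mappability of these starts, which bears on missing peaks here as at UQCRHL.

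Some respiratory genes lie beside another gene. For 39 of the 96, the start of another protein-coding gene lay within 1 kb of the MANE Select start, and at 29 of these the 2 genes pointed away from each other. Counting every start, the number was 43. Both counts include the readthrough genes NDUFC2-KCTD14 at NDUFC2 and ATP5MF-PTCD1 at ATP5MF. They also include unnamed genes on the same strand, such as ENSG00000285827, which starts 1 bp from ATP5MG. No such count over all genes is given, so close starts cannot be called a trait of the members. Partners included other mitochondrial genes, such as MRPL47 at NDUFB5, MRPL36 at NDUFS6 and TIMM8B at SDHD, and genes of the translation machinery, RPS28 at NDUFA7 and EEF1B2 at NDUFS1. BRG1 had a peak at 42 of the 43 genes with a shared start (97.7%, 87.9% to 99.6%) and at 45 of the other 53 (84.9%, 72.9% to 92.1%). For ACTL6A the shares were 72.1% and 60.4%, and for NRF2 48.8% and 43.4%, with overlapping intervals for each antibody. The tissue-restricted isoforms were all among the 53 genes without a shared start, so the groups also differ in isoform type. No such split over all genes is given.

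The peaks of the members were compared in rank with those of all genes, since fragments depend on the depth of each library. The members' strongest peaks had a median rank of 20.6% of the list for ACTL6A, 19.7% for BRG1 and 43.8% for NRF2. For all genes with a peak these were 20.7%, 18.8% and 41.8%. Median fragments were 10 for ACTL6A, 23 for BRG1 and 18.5 for NRF2 at members, and 10, 22 and 19 over all genes. The members thus had peaks more often than all genes did, at strengths close to those of the other genes with a peak. NDUFA11, NDUFA6, ATP5MC1 and ATP5F1C were in the highest 10% of all 3 lists, 11.8% of the 34 with all 3, against 5.93% of all 4353 genes with all 3.

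BRG1 held more fragments where another antibody also had a peak. At the 61 members with ACTL6A its summits had 4 to 145 fragments with a median of 24, and at the 26 without 8 to 42 with a median of 16. At the 44 members with NRF2 the median was 31.5 and at the 43 without it was 17. Over all genes the corresponding medians were 28 and 15 with and without ACTL6A, and 32 and 16 with and without NRF2. The ranges overlapped widely in each case. For NRF2 itself the order was not seen at the members, with a median of 17.5 fragments at 34 genes with ACTL6A and 18.5 at 10 genes without, whereas over all genes the medians were 19 and 16.

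The summits lay close to the start. The median distance from the MANE Select start was 124 bp for ACTL6A, 118 bp for BRG1 and 214 bp for NRF2, against 209, 181 and 236 bp over all genes with a peak. Within 100 bp of the start were 28 of 63 ACTL6A summits (44.4%, against 25.4% of all genes), 38 of 87 BRG1 summits (43.7%, against 28.7%) and 9 of 44 NRF2 summits (20.5%, against 22.2%). For ACTL6A and BRG1, 73.0% and 69.0% of the members' summits were upstream, and for NRF2 56.8%, against 69.9%, 61.5% and 58.1% of all genes with a peak.

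At the 34 genes with all 3, the strongest summits spanned a median of 133 bp, against 205 bp over all genes with all 3. At 5 of the 34 (14.7%) they spanned at most 10 bp, against 3.79% over all genes, a limit chosen after the values were seen. Within 100 bp there was little difference, with 9 of the 34 (26.5%) against 24.2%. The 5 genes within 10 bp were ATP5F1B (summits of ACTL6A, BRG1 and NRF2 at -197, -198 and -198), ATP5PB (-211, -211 and -210), NDUFC1 (1119, 1122 and 1119), ATP5MC1 (-208, -207 and -204) and COX8A (-203, -207 and -200). At ATP5PB this point is close to the start of WDR77, which lies 208 bp away and points in the other direction. At NDUFC1 the summits lie downstream of its start, and NAA15 starts 889 bp from NDUFC1 and within 1 kb of these peaks. They cannot be assigned to NDUFC1 alone. Over 61 members, the strongest summits of ACTL6A and BRG1 were a median of 57 bp apart (86 bp over all genes), and over 44 members those of NRF2 and BRG1 were 131 bp apart (144 bp).

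**Figure D3:**
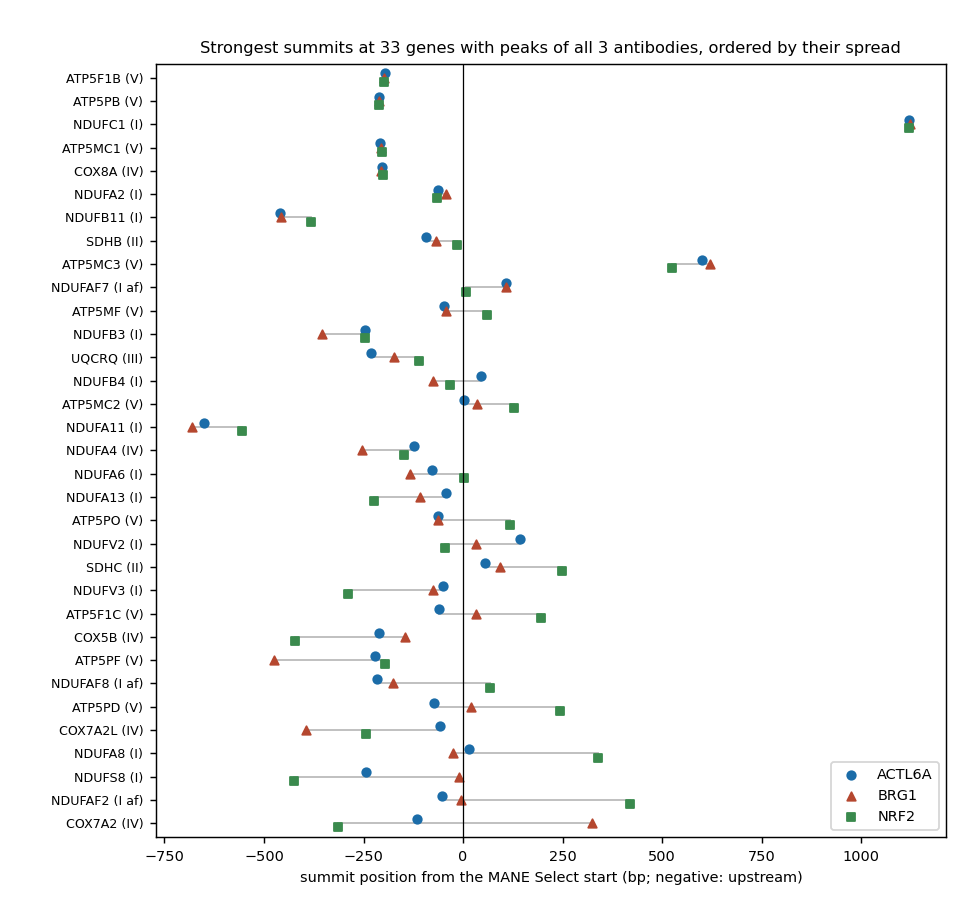
The horizontal axis gives the position in bp of each antibody's strongest summit from the MANE Select start, negative upstream, for 33 genes with peaks of all 3 antibodies, ordered by the span of the 3 summits. NDUFAF6 is left out because its BRG1 and NRF2 summits lie at -129153 and -129480. The first 5 rows span at most 7 bp.

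At the members' starts, by a rule of 1 bp, ACTL6A and NRF2 peaks overlapped other peaks at shares close to those at all starts. BRG1 peaks did so more often. With an overlap of 1 bp or more, 60 of 67 ACTL6A peaks met a BRG1 peak (89.6%, 80.0% to 94.8%), against 87.1% of the 7246 ACTL6A peaks at any start. Of 45 NRF2 peaks, 42 did so (93.3%, 82.1% to 97.7%), against 94.9% of 4740. Of the ACTL6A peaks, 34 overlapped an NRF2 peak (50.7%, 39.1% to 62.3%), against 48.2%. Of 107 BRG1 peaks, 60 overlapped an ACTL6A peak (56.1%, 46.6% to 65.1%), against 41.1% of the BRG1 peaks at any start, and 48 an NRF2 peak (44.9%, 35.8% to 54.3%), against 32.1%. When at least 50% of both peaks had to be covered, the shares for ACTL6A with BRG1, NRF2 with BRG1 and ACTL6A with NRF2 were 58.2%, 71.1% and 31.3%. For this stricter rule no share over all starts is given. No peak at a member overlapped a peak of IgG 2, among 67 of ACTL6A, 107 of BRG1 and 45 of NRF2. This allows shares of up to 5.42%, 3.47% and 7.87% by the upper Wilson bound. Over all peaks at a start the shares were 0.179%, 0.0923% and 0.274%, so the absence is not particular to the members.

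The promoters of the members held the letters of known respiratory factors more often than promoters at large. For the ETS core and the YY1 site, though not the NRF1 site, some other housekeeping genes held them at least as often. In the 300 bases from 250 before to 50 after the start, the ETS core was found in 23 of 77 (29.9%, 20.8% to 40.8%), against 14.7% of 15306 genes. The NRF1 site was found in 11 (14.3%, 8.17% to 23.8%), against 2.80%, and the YY1 site in 13 (16.9%, 10.1% to 26.8%), against 4.15%. At least 1 of these 3 was found in 40 (51.9%, 41.0% to 62.7%), against 20.0%. In complex V it was 10 of 14 promoters (71.4%, 45.4% to 88.3%) and in complex IV 5 of 14 (35.7%, 16.3% to 61.2%). The ARE core, which marks known NRF2 targets, was found in 13 (16.9%, 10.1% to 26.8%), against 14.3%, a share inside the interval. The ETS core was at least as frequent in the genes of mitochondrial ribosomal proteins (43.5%), proteasome subunits (35.3%) and cytosolic ribosomal proteins (32.9%), and the YY1 site in those of mitochondrial ribosomal proteins (30.4%). With the looser ETS letters GGAAG the members' share was 75.3% and that of all genes 74.0%. Sites of ETS and NRF1 occurred together in ATP5ME, COX6A1 and SDHD, and of ETS and YY1 in ATP5PF, NDUFAF8 and SDHB, with no base in common. An NRF1 site and an ARE core shared bases in 1 of the 77 promoters. Median GC content was 61.0% in the members and 63.7% over all genes.

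Among the members with an ETS core, 23 of 23 had BRG1 and 19 had ACTL6A (82.6%, 62.9% to 93.0%), while of the 54 without it 48 and 33 did (88.9% and 61.1%). Over all genes BRG1 had a peak at 90.2% of promoters with the ETS core and 61.6% without, and ACTL6A at 60.8% and 37.5%. NRF2 lay at 9 of the 23 (39.1%, 22.2% to 59.2%) and at 28 of the 54 (51.9%, 38.9% to 64.6%). Over all genes NRF2 had a peak at 45.6% of promoters with the ETS core and 27.2% without. Of the 13 members with an ARE core, 5 had NRF2 (38.5%, 17.7% to 64.5%), and of the 64 without, 32 (50.0%, 38.1% to 61.9%), with overlapping intervals. Over all genes the order was the opposite, with 34.7% and 29.1%. In the 200 bases around the summit, TGACNNNGC was found at 3 of the 45 NRF2 peaks of members (6.67%, 2.29% to 17.9%), against 10.2% of the NRF2 peaks at all starts. With the looser letters TGANNNNGC the share was 15.6% (7.75% to 28.8%), against 31.3%. The 3 peaks with TGACNNNGC were those of NDUFA2 (14 fragments), UQCRC1 (13 fragments) and ATP5PD (41 fragments). The letters are a description of the window and not evidence of a bound site.

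**Figure D4:**
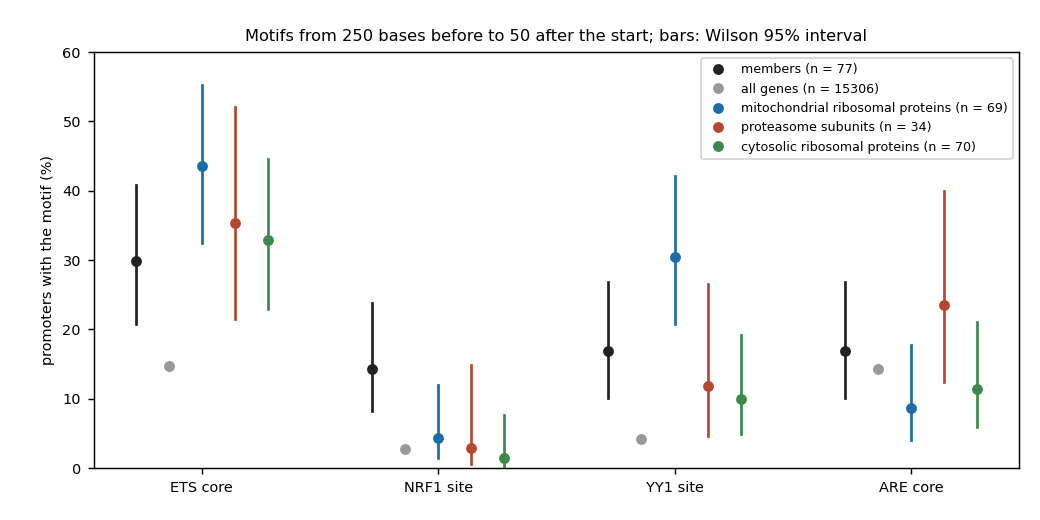
Points give the percentage of RefSeq promoters that hold each motif on either strand, with Wilson 95% intervals, for the respiratory genes (77), all genes (15306), mitochondrial ribosomal proteins (69), proteasome subunits (34) and cytosolic ribosomal proteins (70). The NRF1 site lies at 14.3% in the respiratory genes and between 1.43% and 4.35% in the other 3 lists.

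Other genes of the pathway were counted in the same way, against the 38.5%, 63.5% and 28.1% of all genes given above for ACTL6A, BRG1 and NRF2. Of 5 electron carriers outside the naming rule, 3 had ACTL6A (60.0%), 4 had BRG1 (80.0%) and 5 had NRF2 (100%, 56.6% to 100%), and this last interval lay above that of the members. CYCS, cytochrome c, had 19, 63 and 19 fragments of ACTL6A, BRG1 and NRF2, and CYC1, the cytochrome of complex III, had 30 of BRG1 and 29 of NRF2. ETFB, a subunit of the electron transfer flavoprotein, had NRF2 alone with 30 fragments, a pattern that no member showed. All 33 assembly factors of complexes II to V had BRG1, 20 had ACTL6A (60.6%) and 15 had NRF2 (45.5%). COX14, which helps to make the COX1 core subunit, had 37, 71 and 33 fragments. Of 14 regulators of mitochondrial genes, 13 had BRG1, 8 had ACTL6A and 7 had NRF2. PPARGC1A, the coactivator of mitochondrial biogenesis, had no peak, and NRF1 had 17 fragments of BRG1 and 15 of NRF2.

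Other sets of housekeeping genes gave shares near those of the respiratory genes. For ACTL6A, the 78 mitochondrial ribosomal protein genes stood at 65.4%, the 39 proteasome subunits at 69.2% and the 87 cytosolic ribosomal protein genes at 70.1%, around the 65.6% of the respiratory genes. For BRG1 they stood at 94.9%, 94.9% and 86.2%, and for NRF2 at 39.7%, 59.0% and 48.3%, against 90.6% and 45.8%. Each of these 9 shares had an interval that overlapped that of the respiratory genes. For the NRF1 site, the interval of the cytosolic ribosomal protein genes (0.253% to 7.66%) ended below that of the respiratory genes (8.17% to 23.8%), and those of the mitochondrial ribosomal protein genes (1.49% to 12.0%) and proteasome genes (0.521% to 14.9%) overlapped it.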

How the data were processed

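CUT&Tag peak lists of 5 SNU638 libraries were used, each 1 sample. Per the submitters' processing notes and the study's methods, the authors cleaned reads (fastp 0.23.0 is listed), mapped them with BWA to hg38, kept uniquely mapped reads and ran MACS2, with 0.05 as the upper limit of the q-value. HOMER 4.11, deepTools and FastQC are also listed. The control given to the caller is not given in the sources used here. In the deposited lists the score is 10 times the -log10 q-value, the fold enrichment is a ratio at the summit, and the -log10 p and -log10 q-values are the caller's.

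The members and lists were chosen with earlier results of these data known. Starts came from GENCODE release 44 (protein-coding transcripts), and 1 kb was the distance allowed. Named genes were those without a BRG1 peak, the strongest and weakest of each complex by -log10 q, the tissue-restricted isoforms with their partners, and those whose antibodies differed; roles within complexes, genes with coincident summits and further named genes, such as NDUFA6, NDUFS8 and NDUFAB1, were chosen after values were seen. 1 member is not reported by name here. Fragments at a summit were recovered as the whole number that gives the deposited fold and p-value within 0.001, with a pseudocount of 1, for at least 98.9% of peaks of each list. Total read numbers are not in the lists. The paper's reporting summary gives clean reads per antibody, with the most for NRF2 and the fewest for ACTL6A among the 3. They were not used here. Folds, q-values and scores were not compared between lists. Shares have Wilson 95% intervals. Alternatives were peaks with -log10 q from 5 up, the 5000 highest peaks, 250 bp or 3 kb, 1 start per gene, fewer members, peaks shared with IgG left out, 50% overlap, and longer windows (500 before to 100 after) or looser motifs. Routines were tested on simulated data. samtools 1.23.1, pysam 0.24.0, pandas 2.3.3, matplotlib 3.10.9, SciPy 1.17.1 and NumPy 2.4.6 were used under Python 3.11.15.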

Additional observations from a re-analysis of the deposited data

How the results depend on the processing

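Each antibody had 1 library, so nothing here measures the spread between replicates, and depth limits a missing peak to "not called". No paired analysis was possible because no antibody was profiled more than once. Of 49 recomputed values, 31 stayed within 1.5 times the count or inside the interval first given, and 18 moved. With peaks of a -log10 q of at least 5, NRF2 was left at 25 members and all 3 at 16. For NRF2 this was 26.0% of the members, against 17.2% of all genes. With the 5000 highest peaks of each list, ACTL6A was left at 32 members, BRG1 at 29, NRF2 at 27 and all 3 at 9. The shares for ACTL6A, BRG1 and NRF2 were 33.3%, 30.2% and 28.1%, against 19.4%, 19.0% and 18.5% of all genes. For all 3 no share over all genes is given at these settings. These settings test fewer peaks by construction. Over the 53 members without a shared start, which are fewer by construction, the counts were 32, 45, 23 and 17. Requiring 50% of both peaks gave overlaps of 58.2% (ACTL6A with BRG1), 71.1% (NRF2 with BRG1) and 31.3% (ACTL6A with NRF2). Keeping peaks with -log10 q from 5 up in both gave 36.4% for ACTL6A with NRF2. These overlap shares cover the members' peaks only. Looser letters gave 75.3% for the ETS core, 31.2% for the NRF1 site, 33.8% for the YY1 site and 39.0% for the ARE core, against 74.0%, 11.5%, 8.31% and 42.6% of all genes. No member had an IgG peak at 1 kb or 3 kb, or with either IgG list left out (0 to 0).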
